A study of Mus musculus with 9 samples.

Results

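The 8 genes described here handle glucose in the kidney and were taken by their Entrez gene number as 8 of the 17963 genes of the deposited table. They are the sodium-coupled glucose transporters Slc5a1 and Slc5a2, the facilitative glucose transporters Slc2a1 and Slc2a2, and the gluconeogenic enzymes Pck1, G6pc, Fbp1 and Pcx. The RNA came from cortical kidney tissue of mice of genotype WT on day 4, with 3 libraries in each of 3 groups. Control mice were given an injection of saline into the peritoneum and pure water into the stomach. Mice of the cisplatin group were injected in the same way with cisplatin, an anticancer drug that injures the renal tubule, and also given pure water. The cisplatin + YSJZD group received the cisplatin injection and, into the stomach, Yishen Jiangzhuo decoction, a herbal medicine. The cisplatin + YSJZD group is called the YSJZD group below, and there was no group with the decoction alone. Strain, age, dose and the number of mice were not given in the sources used here, nor whether the 3 samples of a group came from separate mice, so p-values cover the spread between these samples only, which may be technical.

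The proximal tubule recovers almost all filtered glucose and also makes glucose. In its early segments SGLT2, the product of Slc5a2, takes up most of the filtered load across the brush border with sodium, and SGLT1, the product of Slc5a1, takes up what is left further along. Glucose then leaves the cell through the basolateral carriers GLUT2 (Slc2a2) and GLUT1 (Slc2a1). The same cells build glucose from lactate, glutamine and glycerol. Pyruvate carboxylase (Pcx) forms oxaloacetate in the mitochondria, phosphoenolpyruvate carboxykinase (Pck1) converts oxaloacetate to phosphoenolpyruvate, fructose-1,6-bisphosphatase (Fbp1) removes a phosphate from fructose-1,6-bisphosphate, and glucose-6-phosphatase (G6pc) releases free glucose.

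The libraries held 15029286 to 16690482 expected counts. All 8 genes passed the filter on low counts. Levels are given as CPM (counts scaled to library size, with TMM factors), and changes are log2 fold changes ± SE from edgeR's quasi-likelihood test over all 13954 genes tested, and a gene was called where its p, adjusted after Benjamini and Hochberg, lay under 0.05. Cisplatin replicate 3 stood apart from the other cisplatin libraries in the lowest G6pc, Pck1 and Fbp1 and in a summed level of 8 endothelial markers of 166 CPM, against 329 and 340 CPM. Of 11 markers of the early proximal tubule (segments S1 and S2), all had counts in each group, and their summed level ran from 16260 to 18020 CPM in control, 1877 to 2281 CPM with cisplatin and 4776 to 10400 CPM in the YSJZD group. In bulk tissue, fewer cells of a type and less RNA per cell cannot be told apart.

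With cisplatin, Slc5a2, Fbp1 and Pcx fell to 17.5%, 22.4% and 23.3% of their control means, and Slc2a1 rose to 379%. Slc5a1, Slc2a2, Pck1 and G6pc did not pass the test. Thus 1 of 8 members was called higher and 3 lower, where 28.6% of all genes tested were called higher and 26% lower. DESeq2 and limma-voom each called 7 of the 8, adding Slc5a1, Slc2a2 and Pck1. Their median log2 fold change was -0.86, against 0.04 over all genes tested. In the YSJZD group against cisplatin, 4 members were called higher and 1 lower, against 17.4% and 18% of all genes. Their median was 1.13, against -0.01 over all genes. Against control the YSJZD group had 1 member called higher and 3 lower, with 9.93% and 9.37% of all genes called in those directions and medians of -0.30 and 0.01. These 4 calls became 1 or 2 when any 1 of the 6 libraries compared was left out. The 3 comparisons share libraries pairwise, so a high or low cisplatin library moves both comparisons that use it. Without cisplatin replicate 3, 5 members were called against control (1 higher, 4 lower) and 6 between YSJZD and cisplatin (4 higher, 2 lower).

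**Figure D1:**
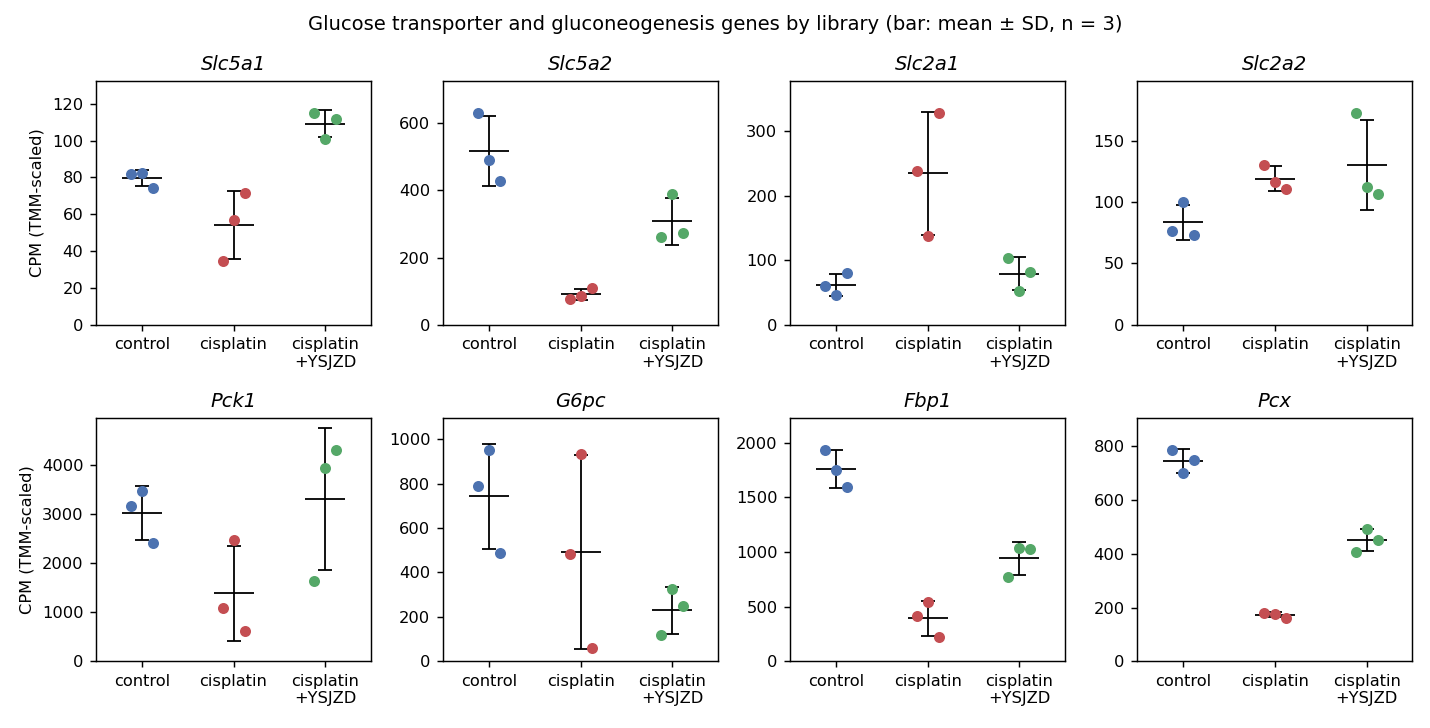
Level of each of the 8 genes by library in TMM-scaled CPM on linear axes that differ between genes, with 3 points per group and bars for the mean ± SD. Slc5a2, Fbp1 and Pcx show 3 separate groups with cisplatin lowest, while the cisplatin libraries of G6pc spread from 58.9 to 931.8 CPM.

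**Figure D2:**
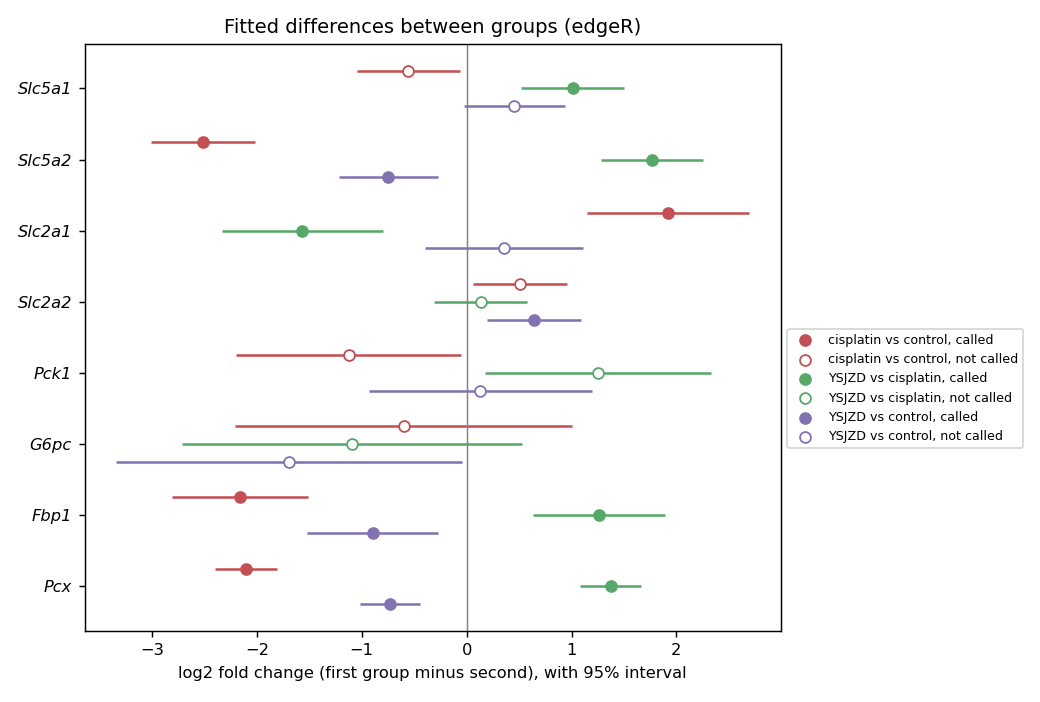
Fitted log2 fold change of each gene with its 95% interval (not adjusted for the number of genes) in the 3 comparisons; filled points were called. Pcx has the narrowest intervals and G6pc the widest, and no G6pc difference was called.

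Slc5a2 (Entrez gene 246787), which encodes SGLT2, stood at 630.8, 491.3 and 426.8 CPM in the control libraries. The cisplatin libraries held 76.9, 85.1 and 109.4 CPM, and the YSJZD libraries 260.5, 389.1 and 273.7 CPM. No library of one group overlapped another group, with cisplatin lowest, YSJZD between and control highest. The log2 fold change was -2.51 ± 0.22 with cisplatin against control (edgeR adjusted p = 1.295e-05) and 1.77 ± 0.22 in YSJZD against cisplatin (adjusted p = 0.0003653). Against control the YSJZD group was lower by a log2 fold change of -0.75 ± 0.21 (edgeR adjusted p = 0.03485). That last call was lost without control replicate 1 (-0.58), control replicate 2 (-0.78), YSJZD replicate 1 (-0.64) or YSJZD replicate 3 (-0.67).

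Slc5a1 (Entrez gene 20537), which encodes SGLT1, showed another order of groups. It stood at 81.7, 82.6 and 74.5 CPM in control, at 34.5, 56.8 and 71.3 CPM with cisplatin, and at 115.1, 101.0 and 111.7 CPM in the YSJZD group. The YSJZD libraries lay above all others, and the cisplatin libraries below control. The rise in YSJZD against cisplatin was called, at a log2 fold change of 1.01 ± 0.22 (edgeR adjusted p = 0.006185). The cisplatin difference from control was -0.56 ± 0.22, with a 95% interval of -1.04 to -0.07, and narrowly missed the threshold (edgeR adjusted p = 0.05335). It was called without cisplatin replicate 3 (-0.80, edgeR adjusted p = 0.008133) and by DESeq2 (adjusted p = 0.0381) and limma-voom (adjusted p = 0.03801). YSJZD against control gave 0.46 ± 0.22 (edgeR adjusted p = 0.1783).

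Because a ratio within a library does not depend on scaling between libraries, the SGLT1 to SGLT2 balance was also taken from the deposited FPKM values. The Slc5a1/Slc5a2 ratio lay between 0.0721 and 0.0972 in control, 0.250 and 0.373 with cisplatin, and 0.145 and 0.246 in the YSJZD group. The 3 groups did not overlap, the highest ratio in the YSJZD group lying just below the lowest with cisplatin. The mean log2 ratio rose from control to cisplatin by 1.90 ± 0.23 (SE), was lower in YSJZD than with cisplatin by -0.69 ± 0.30, and was higher in YSJZD than control by 1.21 ± 0.27. Each had a two-sided exact permutation p of 0.1, the smallest that 3 against 3 libraries allow, and 0.18 after adjustment over 9 ratio tests, so none passed.

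Slc2a1 (Entrez gene 20525), which encodes GLUT1, a carrier of most cell types, was the member that rose with cisplatin. Control libraries held 59.6, 46.0 and 80.1 CPM, cisplatin libraries 238.0, 137.1 and 328.4 CPM, and YSJZD libraries 103.4, 52.3 and 81.8 CPM. All cisplatin libraries lay above all others, and the YSJZD and control libraries overlapped. The log2 fold change was 1.92 ± 0.35 with cisplatin against control (edgeR adjusted p = 0.00101) and -1.57 ± 0.34 in YSJZD against cisplatin (adjusted p = 0.006412). YSJZD against control was 0.36 ± 0.34 with a 95% interval of -0.40 to 1.11 (edgeR adjusted p = 0.5109). The summed level of 8 macrophage markers was also highest with cisplatin. It ran from 105 to 156 CPM in control, 1122 to 2565 CPM with cisplatin and 403 to 746 CPM in the YSJZD group. Of the 8, 7 were called higher with cisplatin, 6 lower in YSJZD against cisplatin and 3 higher in YSJZD against control. The shares of all genes tested so called were 28.6%, 18% and 9.93%. Cd14 was the largest in both treated groups, with means of 12.2, 1051 and 405 CPM in control, cisplatin and YSJZD. Csf1r, at 67.8, 74.6 and 37.8 CPM, was not called in any comparison. The 7 neutrophil markers summed to 1.31 to 1.60, 23.1 to 60.0 and 3.74 to 8.05 CPM in the same order. In cisplatin replicates 1, 2 and 3, where Slc2a1 stood at 238.0, 137.1 and 328.4 CPM, the macrophage sums were 1122, 2565 and 2390 CPM. The neutrophil sums were 23.1, 60.0 and 57.1 CPM. The part of these cells in the Slc2a1 difference was not tested. The sum of the 8 erythroid markers went the other way. It was 265 to 607 CPM in control, 1.54 to 2.49 with cisplatin and 2.37 to 3.15 in the YSJZD group. Hba-a2 and Hbb-bt were at 0 in both treated groups. The largest part in control was Hba-a1, with a mean of 373 CPM. Only 4 were tested, of which 3 were called lower with cisplatin and 2 in YSJZD against control. Of all genes, 26% and 9.37% were so called. Klf1, at 0.52, 0.48 and 0.55 CPM, was not called in any comparison.

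Slc2a2 (Entrez gene 20526), which encodes GLUT2, the exit carrier of the early proximal tubule, stood higher in the treated libraries than in control. It stood at 76.9, 100.1 and 73.5 CPM in control, 130.2, 116.3 and 110.4 CPM with cisplatin and 172.9, 112.3 and 106.5 CPM in the YSJZD group. All 6 treated libraries lay above the highest control library, and the cisplatin and YSJZD libraries overlapped. The difference was 0.51 ± 0.20 with cisplatin against control, which just missed the threshold (edgeR adjusted p = 0.05296), and 0.13 ± 0.20 in YSJZD against cisplatin, with a 95% interval of -0.31 to 0.58 (edgeR adjusted p = 0.631). In YSJZD against control it was called higher at 0.65 ± 0.20 (edgeR adjusted p = 0.04881). These calls sit at the threshold. The cisplatin difference was called under 7 of 15 alternatives, among them without control replicate 2 (0.66), with library totals (0.74) and by DESeq2 (0.50). The YSJZD call was lost without control replicate 1 (0.59), control replicate 3 (0.56), YSJZD replicate 1 (0.39) or YSJZD replicate 2 (0.75).

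The Slc2a1/Slc2a2 ratio of FPKM values lay between 0.459 and 1.09 in control, 1.18 and 2.98 with cisplatin and 0.466 and 0.768 in the YSJZD group. Only cisplatin libraries had more Slc2a1 than Slc2a2 apart from control replicate 3, at 1.09. The mean log2 ratio was higher with cisplatin than control by 1.35 ± 0.53 (SE) and lower in YSJZD than cisplatin by -1.64 ± 0.44, each with an exact permutation p of 0.1 (0.18 adjusted over the 9 tests). YSJZD against control gave -0.29 ± 0.42 (exact permutation p = 0.6).

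**Figure D3:**
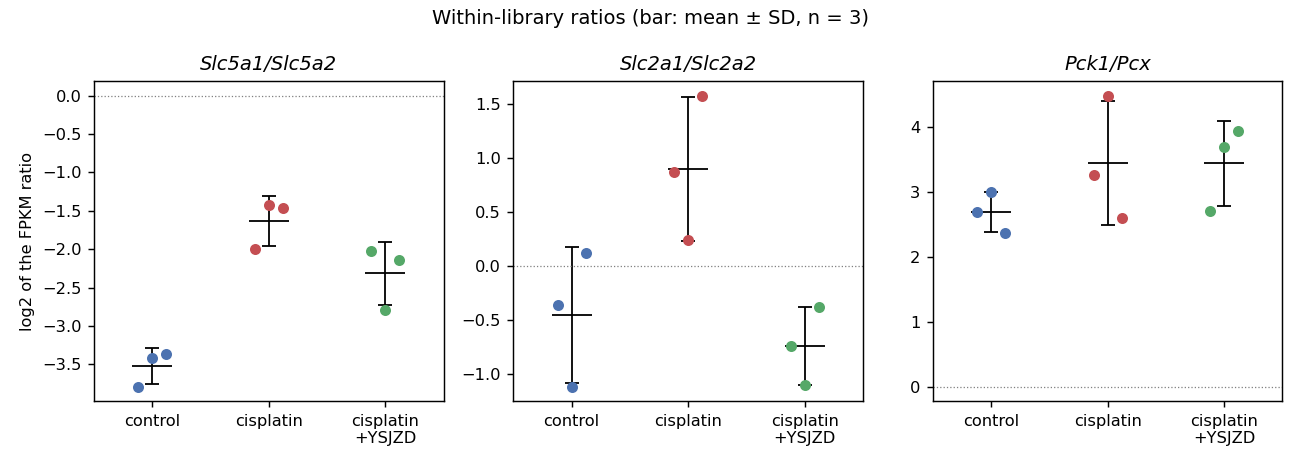
Ratio of deposited FPKM values within each library for Slc5a1/Slc5a2, Slc2a1/Slc2a2 and Pck1/Pcx, as log2 values, with 3 points per group and bars for the mean ± SD. The Slc5a1/Slc5a2 ratio separates the 3 groups, the Slc2a1/Slc2a2 ratio separates cisplatin from both others, and the Pck1/Pcx ratio overlaps between groups.

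Pcx (Entrez gene 18563) had the smallest spread within groups of the 4 enzymes. It stood at 787.3, 698.6 and 749.5 CPM in control, 181.3, 176.8 and 162.9 CPM with cisplatin and 407.9, 491.3 and 452.2 CPM in the YSJZD group. The groups were far apart relative to their spread, with YSJZD at 60.5% of the control mean. The log2 fold change was -2.10 ± 0.13 with cisplatin against control (edgeR adjusted p = 2.448e-06), 1.38 ± 0.13 in YSJZD against cisplatin (adjusted p = 9.835e-05) and -0.73 ± 0.13 in YSJZD against control (adjusted p = 0.003971). These 3 calls held under all 15 alternatives.

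The Pcx counts come from 3 transcripts, which did not keep their proportions. In rodents the gene is known to have a distal promoter and a proximal one, the latter known for gluconeogenic and fat-making tissues. The 250 bases before each annotated start are shown because transcripts of these starts differed in level across the groups; they are from RefSeq (GRCm38.p6, plus strand, 5′ to 3′), and capitals mark ACGTG, the core of the hypoxia response element, or its reverse complement.
Pcx distal start, chr19:4510222-4510471: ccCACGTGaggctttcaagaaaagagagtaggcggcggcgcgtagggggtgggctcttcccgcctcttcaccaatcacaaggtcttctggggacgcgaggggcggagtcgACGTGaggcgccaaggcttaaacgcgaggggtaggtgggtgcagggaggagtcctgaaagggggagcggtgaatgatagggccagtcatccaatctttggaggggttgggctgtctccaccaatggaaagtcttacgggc
Pcx proximal start, chr19:4594069-4594318: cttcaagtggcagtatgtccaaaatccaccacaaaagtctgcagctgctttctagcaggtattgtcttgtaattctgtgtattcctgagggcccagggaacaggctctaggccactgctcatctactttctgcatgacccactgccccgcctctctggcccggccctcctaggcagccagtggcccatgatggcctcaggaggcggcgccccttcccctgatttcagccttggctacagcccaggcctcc
The distal window holds ACGTG on one strand or the other, with overlapping matches on both strands at its upstream end, and the proximal window does not. A match occurs in 19.6% of all 32851 windows of 300 bases, which run to 50 bases past the start, and also in those of Slc2a1 and Slc5a1. It is a match of letters and does not show binding.

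The transcript from the distal start (NM_001162946.1) had 73.6, 70.7 and 84.0 FPKM in control, 44.9, 34.8 and 32.7 with cisplatin, and 91.0, 81.1 and 84.1 in the YSJZD group. Its YSJZD libraries overlapped control, and its cisplatin mean was 49.2% of the control mean. Percentages of control for the transcripts are of deposited FPKM, without TMM factors, unlike those of the genes above. On that scale the whole Pcx gene had means of 170 FPKM in control, 46.5 with cisplatin and 117 in the YSJZD group. The transcript whose start lies 27 bases from the proximal start (NM_008797.3) had 57.5, 54.1 and 60.9 FPKM in control, 1.47, 4.16 and 0.73 with cisplatin, and 6.27, 25.2 and 20.8 in the YSJZD group. Its cisplatin mean was 3.69% and its YSJZD mean 30.3% of the control mean. The proximal transcript took 33.6% to 33.9% of the gene's expected counts in control, 1.78% to 8.55% with cisplatin and 5.93% to 20.1% in the YSJZD group. The third transcript (XM_006531678.3), whose start was not assigned, had a cisplatin mean of 19.0% and a YSJZD mean of 38.7% of control. This difference was noticed after the values were seen and has no test, and the division of reads between overlapping transcripts is an estimate made by the authors' software.

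**Figure D4:**
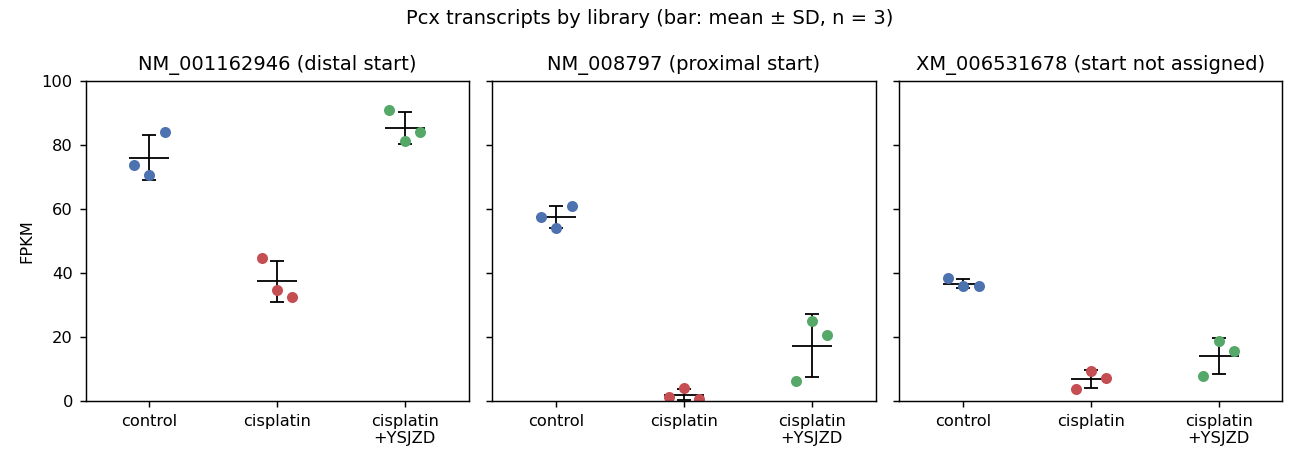
Deposited FPKM of the 3 Pcx transcripts in each library, on a linear axis with bars for the mean ± SD. The proximal-start transcript lies between 54.1 and 60.9 FPKM in control and at 4.16 FPKM or less with cisplatin, while the YSJZD libraries of the distal-start transcript, from 81.1 to 91.0 FPKM, overlap control.

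Fbp1 (Entrez gene 14121) had the same order of groups as Pcx. It stood at 1937, 1752 and 1591 CPM in control, 419.1, 539.3 and 221.5 CPM with cisplatin and 770.2, 1037 and 1027 CPM in the YSJZD group. The 3 groups did not overlap, with YSJZD at 53.7% of the control mean. The log2 fold change was -2.16 ± 0.29 with cisplatin against control (edgeR adjusted p = 0.0001562) and 1.26 ± 0.28 in YSJZD against cisplatin (adjusted p = 0.007009). YSJZD against control was -0.90 ± 0.28 and only just passed (edgeR adjusted p = 0.0488). This call was lost when any 1 of the 6 libraries compared was left out, at -0.97 to -0.77 (edgeR adjusted p from 0.07945 to 0.1513).

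Relative to their means, Pck1 and G6pc varied most of the members within the cisplatin group and within the YSJZD group, while in control Pck1 did not. Both are known to follow hormones and feeding, at Pck1 in part through a cAMP response element in its promoter. The Pck1 upstream sequence is shown because it holds a form of that element, in capitals (RefSeq GRCm38.p6, plus strand, 5′ to 3′).
Pck1, chr2:173152823-173153072: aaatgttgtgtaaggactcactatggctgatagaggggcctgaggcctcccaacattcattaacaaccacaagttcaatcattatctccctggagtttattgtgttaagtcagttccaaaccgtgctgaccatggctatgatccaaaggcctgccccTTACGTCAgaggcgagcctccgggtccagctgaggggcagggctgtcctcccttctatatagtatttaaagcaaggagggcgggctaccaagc
The Pck1 match is TTACGTCA, a form of the cAMP response element searched after the window had been seen, which begins 93 bases before the start and is present in 0.499% of all windows. The letters CAAAGTCCA (HNF4, 0.475% of all windows), TGACGTCA (cAMP response element, 1.79%), ACANNNTGT (glucocorticoid receptor, 6.85%) and TGTTTAC (forkhead, 3.65%) had no match on either strand in the 8 windows of 7 members. TGACGTCA and TTACGTCA each contain ACGTCA but not the ACGTG searched for hypoxia. Slc5a2 was not among these windows.

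Pck1 (Entrez gene 18534) stood at 3157, 3472 and 2413 CPM in control, 1077, 2458 and 611.5 CPM with cisplatin and 1644, 3940 and 4307 CPM in the YSJZD group. Cisplatin replicate 2 reached the control range, and YSJZD replicate 1 fell within the cisplatin range. The log2 fold change was -1.13 ± 0.48 with cisplatin against control (edgeR adjusted p = 0.07208), 1.25 ± 0.49 in YSJZD against cisplatin (adjusted p = 0.06821) and 0.13 ± 0.48 in YSJZD against control (adjusted p = 0.8841), so none was called. Without cisplatin replicate 2 the first was called at -1.83 (edgeR adjusted p = 0.00615) and the second at 1.96 (adjusted p = 0.009912). The second was also called without YSJZD replicate 1, at 1.58 (edgeR adjusted p = 0.03084). DESeq2 called both with all libraries in (adjusted p = 0.02406 and 0.01889).

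G6pc (Entrez gene 14377) stood at 790.3, 952.9 and 487.5 CPM in control, 481.0, 931.8 and 58.9 CPM with cisplatin and 116.9, 323.9 and 248.9 CPM in the YSJZD group. The cisplatin libraries spread 15.8-fold and overlapped both other groups, and the YSJZD libraries all lay below the control libraries. The log2 fold change was -0.60 ± 0.72 with cisplatin against control (edgeR adjusted p = 0.5058), -1.09 ± 0.73 in YSJZD against cisplatin (adjusted p = 0.2701) and -1.69 ± 0.74 in YSJZD against control (adjusted p = 0.1414). Its mean was lowest in the YSJZD group, at 30.9% of control, the only member of which this held. Without cisplatin replicate 3 the YSJZD against cisplatin difference was called lower, at -1.62 (edgeR adjusted p = 0.01872).

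The Pck1/Pcx ratio of FPKM values ran from 5.20 to 8.02 in control, 6.07 to 22.5 with cisplatin and 6.53 to 15.4 in the YSJZD group, so the groups overlapped. The mean log2 differences were 0.76 ± 0.58 (SE) for cisplatin against control (exact permutation p = 0.3), 0.00 ± 0.67 for YSJZD against cisplatin (p = 1.0) and 0.76 ± 0.42 for YSJZD against control (p = 0.2).

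Levels of different genes were compared per length, as mean FPKM. In control Fbp1 (1205) and Pck1 (1108) stood highest, followed by G6pc (319), Slc5a2 (222), Pcx (170), Slc2a2 (31.4), Slc2a1 (23.4) and Slc5a1 (19.1). The libraries of Fbp1 and Pck1 overlapped, as did those of G6pc and Slc5a2, of Slc2a2 and Slc2a1, and of Slc2a1 and Slc5a1. With cisplatin the order was Pck1 (607), Fbp1 (320), G6pc (255), Slc2a1 (102), Slc2a2 (52.6), Pcx (46.5), Slc5a2 (45.4) and Slc5a1 (15.1). In mean level Slc5a2 thus stood above both GLUT genes in control and below both with cisplatin, where its libraries (40.5 to 51.7) overlapped those of Slc2a2 (45.4 to 59.6) and of Pcx (40.7 to 50.3). The cisplatin libraries of Pcx and Slc2a2 overlapped too, as did those of Pck1 and Fbp1 and those of G6pc with every member but Slc5a1, while those of Slc2a1 lay above those of Slc2a2. In the YSJZD group it was Pck1 (1389), Fbp1 (739), Slc5a2 (151), Pcx (117), G6pc (113), Slc2a2 (55.9), Slc2a1 (34.0) and Slc5a1 (30.0). There the libraries of Pck1 and Fbp1 overlapped, as did those of G6pc with Slc5a2, Pcx and Slc2a2, and those of Slc2a1 with Slc5a1.

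Counts in the 4 gene lists below can be set against the shares of all genes tested. With cisplatin 28.6% of all genes were called higher and 26% lower. In YSJZD against cisplatin these shares were 17.4% and 18%, and in YSJZD against control 9.93% and 9.37%. Of 16 other enzymes of the pathway, most of which also serve glycolysis, 15 were tested. With cisplatin 2 rose and 6 fell, and their median log2 fold change was -0.31. Those that fell included the malate dehydrogenases Mdh1 (-1.90 ± 0.19, edgeR adjusted p = 2.307e-05) and Mdh2 (-0.87 ± 0.13), which carry reducing power and carbon between mitochondrion and cytosol, with triose phosphate isomerase Tpi1 (-1.22 ± 0.16) and phosphoglycerate kinase Pgk1 (-0.69 ± 0.14). Slc37a4, the transporter that brings glucose-6-phosphate to G6pc, was singled out after its values were seen and fell by a log2 fold change of -1.48 ± 0.31 (edgeR adjusted p = 0.002251). The 2 that rose are second isoforms of member enzymes. Fbp2, the muscle form of the bisphosphatase, rose from 13.2 ± 4.40 to 105 ± 21.0 CPM (SD, n = 3; 3.00 ± 0.32 on the log2 scale, edgeR adjusted p = 3.714e-05) while Fbp1 fell. It stood at 91.5 ± 33.7 CPM in the YSJZD group. Pck2, the mitochondrial carboxykinase, rose by 0.56 ± 0.16 on the log2 scale (edgeR adjusted p = 0.01401). In YSJZD against cisplatin 3 of the 15 rose and the other 12 were not called, with a median of 0.11. They were Mdh1 (1.05 ± 0.18), Tpi1 (0.80 ± 0.16) and Mdh2 (0.42 ± 0.13), of which the Mdh2 call was lost without any 1 of the 6 libraries (0.39 to 0.46). Against control the YSJZD group had 1 higher and 4 lower.

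All 18 genes that bring in and channel the precursors were tested, and with cisplatin 3 rose and 10 fell, with a median of -0.94. The lactate and monocarboxylate transporter Slc5a8 fell by a log2 fold change of -4.14 ± 0.31 (edgeR adjusted p = 5.172e-06), glycerol kinase Gk by -3.39 ± 0.31 (adjusted p = 1.403e-05), and Mpc1, a subunit of the mitochondrial pyruvate carrier, by -1.59 ± 0.16. Pdk4, the kinase that turns off pyruvate dehydrogenase, rose from 12.4 ± 2.64 to 1029 ± 312 CPM (SD, n = 3; 6.38 ± 0.48 on the log2 scale, edgeR adjusted p = 4.893e-06). The lactate transporter Slc16a1 (2.16 ± 0.26) and glutamate dehydrogenase Glud1 (0.61 ± 0.14) also rose. In YSJZD against cisplatin 11 rose and 1 fell, with a median of 0.70. The number that rose ran from 8 to 11 over 15 alternatives. Of these calls, that of Slc5a12 (edgeR adjusted p = 0.04861) held under 4 of the 15 and that of Pdha1 under 8. Gk (2.64 ± 0.30, edgeR adjusted p = 0.0002252), Slc5a8 (1.87 ± 0.29) and the glycerol channel Aqp7 (1.52 ± 0.19) rose, and Pdk4 fell to 390 ± 233 CPM (-1.40 ± 0.38). The Pdk4 call was lost without YSJZD replicate 1 (-1.23) or replicate 3 (-1.11). Against control 3 were higher and 4 lower in the YSJZD group. Slc5a12, a lactate transporter of this list, is also among the early proximal tubule markers.

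Of 16 other hexose transporters and their partners, 14 were tested. With cisplatin 3 rose and 4 fell, with a median of -0.45, where 28.6% and 26% of all genes were called in those directions. Slc2a12 (-1.66 ± 0.27) and Slc2a4 (-1.79 ± 0.33), the insulin-responsive GLUT4, and Slc5a9 (-1.08 ± 0.26), the mannose transporter SGLT4, fell. The urate transporter Slc2a9 (1.08 ± 0.19), the high-affinity Slc2a3 (1.80 ± 0.42) and Slc2a6 (3.07 ± 0.78) rose. Slc2a3 stood at 2.61 ± 0.391 CPM (SD, n = 3) with cisplatin and Slc2a6 at 1.63 ± 1.36 CPM. In YSJZD against cisplatin 4 rose and 2 fell, with a median of 0.63, including Slc5a9 (1.44 ± 0.26), the inositol transporter Slc5a11 (0.89 ± 0.23), Slc2a3 (-1.81 ± 0.41) and Slc2a9 (-0.58 ± 0.19). The Slc2a9 call was lost without cisplatin replicate 1 (-0.54) or 2 (-0.58) or YSJZD replicate 2 (-0.40) or 3 (-0.64). Pdzk1ip1, whose product MAP17 is a partner needed for SGLT2 activity, was singled out after its values were seen. It had -0.16 ± 0.22 with cisplatin (edgeR adjusted p = 0.556), where Slc5a2 fell, and rose in YSJZD against cisplatin by 0.87 ± 0.22 (adjusted p = 0.01329). Against control 1 of the 14 was called in the YSJZD group, Slc2a12, which was lower (-0.93 ± 0.26). That call was lost without control replicate 1 (-0.91), 2 (-0.88) or 3 (-0.998) or YSJZD replicate 1 (-0.85) or 2 (-0.84). With library totals in place of TMM it was lost too (-0.73), and 2 others were called higher, Pdzk1ip1 (0.91) among them. Pdzk1ip1 stood at 0.71 ± 0.22 (edgeR adjusted p = 0.05015) and was called under 9 of 15 alternatives.

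Of 17 regulators of these genes tested, 6 rose and 6 fell with cisplatin, with a median of 0.10 (8 and 4 with library totals in place of TMM). Of all genes tested, 28.6% and 26% were called in those directions. Hnf4a, a nuclear receptor that maintains proximal tubule and liver gene programmes, fell by a log2 fold change of -2.01 ± 0.21 (edgeR adjusted p = 3.159e-05) and rose in YSJZD against cisplatin by 1.33 ± 0.20 (adjusted p = 0.001057). The coactivator Ppargc1a fell by -1.51 ± 0.23 and rose by 1.26 ± 0.22. Cebpb (3.42 ± 0.24), the insulin receptor substrate Irs2 (2.23 ± 0.37) and Foxo3 (0.72 ± 0.15) rose with cisplatin. Irs2 fell in YSJZD against cisplatin (-1.35 ± 0.35), a call lost without YSJZD replicate 3 (-1.23). In that comparison 4 regulators rose and 3 fell, with a median of 0.01, where 17.4% and 18% of all genes were called. Without cisplatin replicate 3, YSJZD replicate 1 or YSJZD replicate 3, 1 in place of 3 fell. Against control 4 were higher and 1 lower in the YSJZD group.

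**Figure D5:**
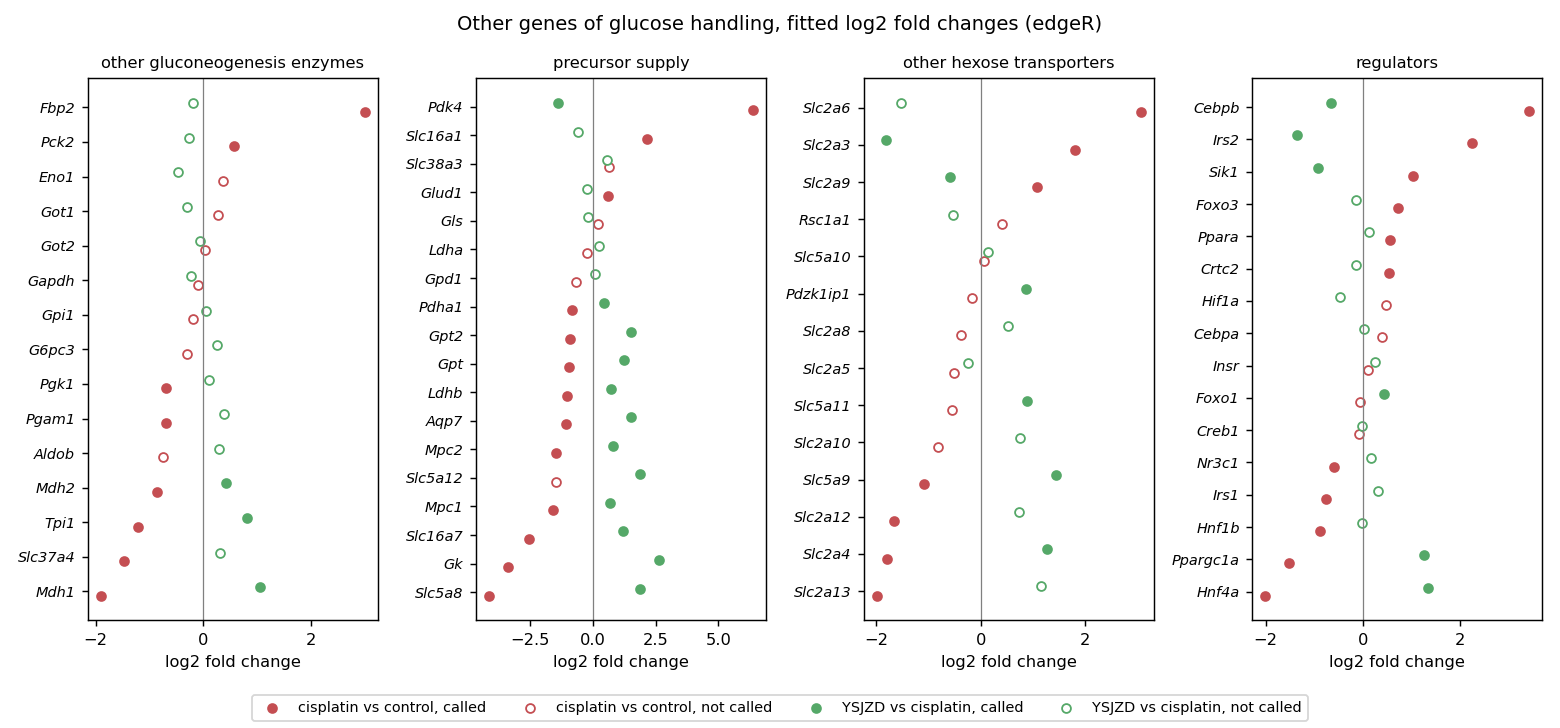
Fitted log2 fold change of the tested genes of the 4 lists, except 1 regulator that is counted but not shown, ordered within each panel by the change with cisplatin against control (red), with YSJZD against cisplatin in green; filled points were called. Most called precursor genes lie left of 0 in red and right of 0 in green, while Pdk4, at 6.38, lies far to the right in red.

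The fall of Slc5a2, Fbp1 and Pcx went with that of most tubule markers, though not all. Of all genes tested, 28.6% were called higher and 26% lower with cisplatin, and 17.4% higher in YSJZD against cisplatin. Of the 11 early proximal tubule markers 8 fell with cisplatin and 8 rose in YSJZD against cisplatin, with medians of -3.20 and 1.87. Slc4a4 (-0.002 ± 0.18) and Slc6a19 (-0.06 ± 0.30) were near control with cisplatin. Slc34a1, at 7722, 218 and 2855 CPM in control, cisplatin and YSJZD, was the largest part of the control sum. Of 9 markers of the last proximal segment (S3), where SGLT1 is placed, 7 fell and 1 rose with cisplatin, and 8 rose in YSJZD against cisplatin, with medians of -4.19 and 1.89. The summed S3 level was 9222 to 9957 CPM in control, 1973 to 2791 CPM with cisplatin and 3770 to 4640 CPM in the YSJZD group. The largest part of the cisplatin sum was Slc6a18, the 1 that rose, with means of 342, 1145 and 1201 CPM in that order. Atp11a came next, at 3640, 908 and 1668 CPM. Slc7a13, by contrast, stood at 1193 CPM in control, 3.61 CPM with cisplatin and 180 CPM in the YSJZD group. Slc5a1, at 68.1% and 137% of control in these groups, and Slc2a2, at 143% and 156%, were not called lower by edgeR with all libraries. With cisplatin Slc5a1 narrowly missed the threshold (edgeR adjusted p = 0.05335) and was called lower by DESeq2 and limma-voom. Of 9 markers of later nephron segments, 6 fell with cisplatin, and the sums were 3806 to 7289, 1046 to 2215 and 2431 to 4116 CPM. The largest part was Umod, with means of 3951, 1074 and 2212 CPM. Cldn16 (0.11 ± 0.22), Aqp2 (0.88 ± 0.42) and Atp6v1g3 (0.88 ± 0.35) were not called with cisplatin. The part of tubule cell number in the member values was not tested.

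Other tissues that express these genes were looked for. Of 8 hepatocyte markers the sum was 66.0 to 102 CPM in control, 50.3 to 79.0 with cisplatin and 76.8 to 539 in the YSJZD group, nearly all of it Apob, and albumin (Alb) did not exceed 6.76 CPM in any library. Of 7 adipocyte markers the sum was 0.199 to 0.583, 4.93 to 11.2 and 0.474 to 28.5 CPM. With cisplatin most of it was Cidec, at 4.72, 6.73 and 7.32 CPM, while Adipoq stood at 0.0542, 0.0571 and 0.931 CPM. Only 1 of the 7, Cidec, passed the filter and was tested. The highest sum was in YSJZD replicate 1, where Adipoq stood at 3.62 CPM and Cfd at 15.5 CPM. That library also had the lowest G6pc, Pck1, Fbp1, Pcx and Slc5a2 of its group, and the highest Slc5a1, Slc2a1 and Slc2a2. Its early proximal tubule sum was 4776 CPM against 10400 and 8420 CPM in the other YSJZD libraries. Its later nephron sum was 2431 CPM against 4116 and 3728, and its macrophage sum 746 CPM against 435 and 403. Its S3 sum, 3909 CPM, lay between those of the others, 4640 and 3770 CPM. The part of these in its member values was not tested.

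Genes most alike to each member were named by the Pearson correlation of log2 CPM over the 9 libraries among 9639 genes. The points share 3 groups, so the values describe the pattern of groups as much as of libraries. The closest to Slc5a2 were Bckdha (0.997), Hgd (0.996) and Cat (0.995), and to Pcx Gfm2 (0.998), Abhd14b (0.998) and Xylb (0.997). Fbp1 was closest to C2cd2l (0.995), Hlf (0.991) and Cnnm4 (0.991). Slc5a1 was closest to Haghl (0.981), Rapgef3 (0.974) and Spata13 (0.963), and Slc2a1 to Ctnna1 (0.973), Plekhm3 (0.970) and Nrxn2 (0.970). Slc2a2 was closest to Tor2a (0.948), Nubp1 (0.945) and Sgsm3 (0.944). Pck1 was closest to Fitm1 (0.968), Alpl (0.966) and Atp6v1d (0.952), and G6pc to Cry2 (0.966), Jade1 (0.942) and Coq10b (0.937). Among the members themselves, Slc5a2 and Pcx had r of 0.977, Fbp1 and Pcx 0.954, and Slc2a1 and Fbp1 -0.934.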

How the data were processed

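RNA-seq was made from total RNA of kidney cortex, 9 libraries in 3 groups, grouped by the treatment label. The deposited table lists 58075 RefSeq transcripts. The authors' read count columns hold expected counts from RSEM 1.3.1 per the submitters' processing notes, which also name DESeq2 1.4.5. The other deposited columns were taken to be FPKM, because they imply 1 length per transcript in all libraries and have unequal sums (590933 to 653033). GRCh38, which is human, is the build in those notes. Aligner and mouse build were not given in the sources used here.

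Expected counts were summed per Entrez gene (12 transcripts for the 8 members) and rounded. Symbols came from RefSeq GRCm38.p6 for 17847 genes, and 116 had none. The fit was edgeR 4.0.16 in R 4.3.3 with filterByExpr (4009 genes removed), TMM (factors 0.855 to 1.105), all 9 libraries and group as the only term. It was tested on simulated data. Ratios were compared by two-sided exact permutation of 3 against 3 libraries. Alternatives were other scaling, filters, DESeq2 1.42.0, limma 3.58.1, fewer libraries and a replicate block.

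The members, lists and motifs were chosen with earlier results of these data known. Named genes are all members, up to 5 per list by smallest p in cisplatin against control, up to 3 in YSJZD against cisplatin, called genes against their list's majority in the first, and the 3 genes most alike to each member with a mean of at least 10 CPM. Marker lists are given by counts and sums. The rule also picked 1 regulator that is not reported here.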

Additional observations from a re-analysis of the deposited data

How the results depend on the processing

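Each log2 fold change of the 8 members was recomputed under 15 alternatives, 360 values in all, of which 313 kept their side of the threshold, 23 gained a call and 24 lost one, with no called value changing sign. The 9 member calls of cisplatin against control and of YSJZD against cisplatin held under all 15, and all 24 losses lay in YSJZD against control. Members called in cisplatin against control numbered 7 with DESeq2 and 7 with limma-voom, against 4. Members called in YSJZD against control numbered 2 with limma-voom and 1 with the replicate block, against 4, and 1 to 2 when 1 library was left out. Genes called there numbered 1607 to 2241 when 1 library was left out, against 2694, with 1607 without control replicate 1 and 1686 without control replicate 2. Replicate numbers did not pair the samples (same-number correlations of -0.197 to 0.092). With the replicate block 5, 6 and 1 members were called in the order cisplatin against control, YSJZD against cisplatin and YSJZD against control, Pck1 being added to the first at -1.28 and to the second at 1.38, among 7347, 4590 and 2367 genes. The 9 ratio differences moved by less than the spread of their groups under every alternative run.

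Library totals without TMM moved the median of all genes from 0.04 to 0.27 in cisplatin against control and from 0.01 to 0.20 in YSJZD against control. Genes called there split into 5183 higher and 2656 lower, against 3987 and 3628, and into 2395 and 778, against 1386 and 1308. Limma on log2(FPKM + 1) gave 5101 and 2665, and 2163 and 844. In YSJZD against control, library totals left Slc5a2 at -0.55 and Fbp1 at -0.70 without a call and called Slc5a1 at 0.65. There the other enzymes had 1 higher and 1 lower, the precursor genes 6 and 3, and of the regulators 6 were higher. The cause of these differences was not tested. The gene lists were recomputed under the same 15 alternatives, a choice made after seeing the data. Over these, in YSJZD against control, the other enzymes had 1 to 5 lower, the precursor genes 2 to 6 higher and 3 to 6 lower, and the regulators 1 to 6 higher. The number of libraries, 3 a group, limits the precision of Pck1 and G6pc, whose calls depended on the test or on single libraries.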
